A study of Mus musculus with 9 samples.

Results

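The DEK peaks of control haematopoietic stem cells (HSC) were read from 3 replicate libraries, DEK1, DEK2 and DEK3. Their peak lists held 9809 peaks on chromosomes 1 to 19 after rows without a dot in the strand column were set aside. Before any row was set aside, the DEK lists held 10339 rows over all chromosomes. The 9 lists of the series held 63440 rows counted in that way. DEK1 gave 1962 peaks, DEK2 gave 2008 and DEK3 gave 5839. Peaks of different libraries were joined into 1 region wherever they overlapped by 1 bp or more, and a region is called recurrent below when at least 2 of the 3 libraries contributed to it. A peak is called shared when it overlapped a peak of another DEK library.

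The cells were Lin-Sca-1+c-Kit+CD48-CD150+ bone marrow cells, about 20000 per library, sorted from C57BL/6 mice of 12 weeks carrying the floxed allele Dekfl/fl without Cre (fl). The labels do not say whether the 3 libraries came from separate animals, so the spread between them may be technical. Peaks of the acetylation mark H3K9ac served for comparison: 1 library of fl HSC with 2099 peaks and 1 of HSC from Dekfl/fl,Tie2-Cre mice (cKO) with 3329. In the cKO mice Cre is driven by the Tie2 promoter, which is active in endothelial as well as blood-forming cells. H3K27ac and H3K4me3 peaks came from fl and cKO LSK cells (Lin-Sca-1+c-Kit+, about 50000 per library), a broader stem and progenitor gate that contains the HSC. Each of these marks had 1 library per genotype, and peak lists cannot check the sorted cell type against its expressed markers. No library made without the DEK antibody, and no DEK library of cKO cells, was analysed here.

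DEK is an abundant non-histone protein of chromatin that binds DNA by its structure more than by a fixed sequence and can act as a histone chaperone. It takes part in transcription, replication and repair, and was first found as part of a fusion protein in acute myeloid leukaemia. CUT&Tag maps such a protein by bringing a transposase to the bound antibody, so that reads gather where the protein sits. With 1 group of 3 libraries there is no second DEK group to test against. An exact paired test over 3 libraries cannot give a two-sided p below 0.25, so the values below are descriptions, with the spread over libraries (SD, n = 3) or exact 95% binomial (Clopper-Pearson) intervals that cover counting error only.

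Few DEK peaks recurred, and the 2 promoter windows touched by peaks of at least 2 libraries held tandem repeats. Of 31365 annotated promoter windows, each reaching from 250 bases before a gene's start to 50 after it, 65 (0.207%) touched a DEK peak of any library and 2 (0.00638%) touched peaks of at least 2 libraries. Both of these 2 belonged to long non-coding RNA genes. They are shown first (RefSeq, GRCm38.p6). Gm36734 comes next, from a region that all 3 libraries called, though only the DEK3 peak reached the window itself. The last 2 windows, also covered in DEK3 alone, are given for contrast. Sequences read 5′ to 3′ on the gene's strand, and capitals mark bases inside a DEK peak of any library.
Gm40237: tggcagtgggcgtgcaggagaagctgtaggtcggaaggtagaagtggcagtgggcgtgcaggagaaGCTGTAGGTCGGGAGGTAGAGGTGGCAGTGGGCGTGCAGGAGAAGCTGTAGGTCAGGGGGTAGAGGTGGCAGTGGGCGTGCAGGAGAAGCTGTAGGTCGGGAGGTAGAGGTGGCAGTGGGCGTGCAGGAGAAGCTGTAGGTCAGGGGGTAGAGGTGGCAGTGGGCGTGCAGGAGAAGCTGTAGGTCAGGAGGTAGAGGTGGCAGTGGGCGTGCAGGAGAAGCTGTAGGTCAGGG
Gm38814: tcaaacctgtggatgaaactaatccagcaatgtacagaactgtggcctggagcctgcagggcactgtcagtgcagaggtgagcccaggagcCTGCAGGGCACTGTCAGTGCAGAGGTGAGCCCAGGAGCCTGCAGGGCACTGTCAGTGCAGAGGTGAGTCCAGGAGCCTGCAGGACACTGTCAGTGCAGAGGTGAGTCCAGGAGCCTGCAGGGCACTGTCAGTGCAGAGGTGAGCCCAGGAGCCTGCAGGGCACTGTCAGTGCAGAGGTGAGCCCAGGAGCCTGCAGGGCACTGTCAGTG
Gm36734: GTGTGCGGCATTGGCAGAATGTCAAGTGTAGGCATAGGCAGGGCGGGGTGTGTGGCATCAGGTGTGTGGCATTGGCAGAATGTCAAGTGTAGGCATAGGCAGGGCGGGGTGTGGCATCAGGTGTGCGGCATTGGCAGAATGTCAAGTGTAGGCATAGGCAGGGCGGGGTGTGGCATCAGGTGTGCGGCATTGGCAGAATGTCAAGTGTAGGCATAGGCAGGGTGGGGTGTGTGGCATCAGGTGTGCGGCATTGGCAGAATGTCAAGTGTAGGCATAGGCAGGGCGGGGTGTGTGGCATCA
Gm13822: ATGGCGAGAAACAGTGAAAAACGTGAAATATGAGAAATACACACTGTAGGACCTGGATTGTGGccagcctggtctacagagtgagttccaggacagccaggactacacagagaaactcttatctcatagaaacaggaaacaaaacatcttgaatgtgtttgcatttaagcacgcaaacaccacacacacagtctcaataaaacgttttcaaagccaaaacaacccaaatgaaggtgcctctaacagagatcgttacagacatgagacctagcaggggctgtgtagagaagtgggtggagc
Ccnb2: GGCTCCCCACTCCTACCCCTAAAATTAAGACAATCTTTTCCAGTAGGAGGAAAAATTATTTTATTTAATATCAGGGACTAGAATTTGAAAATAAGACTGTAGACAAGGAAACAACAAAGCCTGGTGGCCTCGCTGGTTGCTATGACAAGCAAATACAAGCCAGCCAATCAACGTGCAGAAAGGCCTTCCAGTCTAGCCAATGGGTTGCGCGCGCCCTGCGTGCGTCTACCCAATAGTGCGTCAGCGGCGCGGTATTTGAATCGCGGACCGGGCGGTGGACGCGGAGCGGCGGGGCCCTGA

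The Gm40237 window (chr4:118547156-118547455, plus strand) overlapped a DEK peak of each library, with 234 of its 300 bases inside one. That peak had a width of 1468 bp and rank 24 by −log10 q in DEK1, 1465 bp and rank 32 in DEK2, and 1493 bp and rank 33 in DEK3. Its fold enrichment, as the authors' peak caller gave it, was 15.9, 11.2 and 20.9, and H3K9ac and H3K27ac peaks covered the same place. Shifted by 44 bases, the window matched itself at 96.1% of positions, and the word AAGCTGTAGGTC occurred in it 7 times. Matches to itself of this kind are the mark of a tandem repeat, a unit copied head to tail.

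The Gm38814 window (chr6:53493287-53493586, plus strand) touched a peak of DEK2 at rank 1778, by its last 3 bases, and a peak of DEK3 at rank 1468, with no H3K9ac peak. It matched itself at 87.0% of positions when shifted by 38 bases, and the word GGAGCCTGCAGG occurred 7 times. The Gm36734 window (chr13:71020372-71020671, minus strand) was covered over all 300 bases by a DEK3 peak of 890 bp at rank 465. The region around it, chr13:71019539-71020672, was called in all 3 libraries and had no H3K9ac peak. Its DEK1 and DEK2 peaks ended at 71020345 and 71020085, short of the window. That window held the word AAGTGTAGGCAT 5 times, and its best match to itself was 63.2%, at a shift of 61 bases.

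Over all promoter windows, 16 of 31365 (0.0510%, interval 0.0292 to 0.0828) matched themselves at 80% or more for some shift between 10 and 100 bases. Among the windows touched by a DEK peak in 1 library it was 1 of 63 (1.59%, interval 0.0402 to 8.53), and among those touched in at least 2 libraries both did. The window of the 63 that did so, at Gm46287, matched itself at 97.3% and was touched over 6 bases by a DEK3 peak. The median best match was 33.8% over all windows and 34.6% over windows with a DEK peak in 1 library, so these medians were close. Gm13822 (chr5:114922212-114922511, minus strand), touched by a DEK3 peak at rank 99, had a best match of 34.6%. Ccnb2 (chr9:70421505-70421804, minus strand), the gene of cyclin B2, had 31.2%. The search for repeats was made after the 2 sequences had been seen. That both of them matched was thus known beforehand and is no test against the other windows. Read mapping in repeats was not tested.

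The 3 lists differed in length and in peak width. Median width was 383 bp in DEK1, 413.5 bp in DEK2 and 226 bp in DEK3, and the narrowest peaks were 263, 269 and 167 bp. DEK3 thus held almost 3 times as many peaks but narrower ones. The covered length was 847.6 kb in DEK1, 924.8 kb in DEK2 and 1636 kb in DEK3. Median −log10 q, the caller's measure of peak strength, was 3.61, 3.58 and 4.09, and the highest value was 3320, 3899 and 7663. Weak peaks made up most of each list: 30.0% of peaks in DEK1, 30.0% in DEK2 and 37.2% in DEK3 reached a −log10 q of 5. Row names in DEK3 carry the word Flag and another processing stem than those of DEK1 and DEK2. Whether that accounts for the difference in width and length was not tested. Sequencing depth is unknown, because the lists hold no read counts.

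Only a small share of each list met a peak of another. Between DEK1 and DEK2, 164 of 1962 DEK1 peaks (8.36%, interval 7.17 to 9.67) overlapped 162 of 2008 DEK2 peaks (8.07%, interval 6.91 to 9.35). Between DEK1 and DEK3, 279 DEK1 peaks (14.2%) overlapped 278 DEK3 peaks (4.76%). Between DEK2 and DEK3, 277 DEK2 peaks (13.8%) overlapped 281 DEK3 peaks (4.81%). Shares of DEK1 and DEK2 found in DEK3 were thus larger than their shares found in each other, beside a DEK3 list that covered more of the genome. Where peaks did overlap, the match was mostly close: summits lay 57 bp apart in the median for DEK1 and DEK2, 80 bp for DEK1 and DEK3 and 108 bp for DEK2 and DEK3. Near misses were rare: 4 DEK1 peaks overlapped no DEK2 peak but lay within 100 bp of one. The same was true of 14 DEK1 peaks beside DEK3 peaks and of 7 DEK2 peaks beside DEK3 peaks.

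Removing every DEK peak that overlapped an H3K9ac peak of either genotype lowered the overlap in every pair of lists. It took away 11.3% of DEK1, 9.96% of DEK2 and 11.0% of DEK3 peaks and left 1741 peaks in DEK1, 1808 in DEK2 and 5195 in DEK3. Of these, 57 DEK1 peaks (3.27%, interval 2.49 to 4.22) overlapped DEK2, 112 DEK1 peaks (6.43%) overlapped DEK3, and 141 DEK2 peaks (7.80%) overlapped DEK3. The median distance between summits of overlapping peaks was then 154, 113 and 139.5 bp, longer in each comparison than with all peaks.

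**Figure D1:**
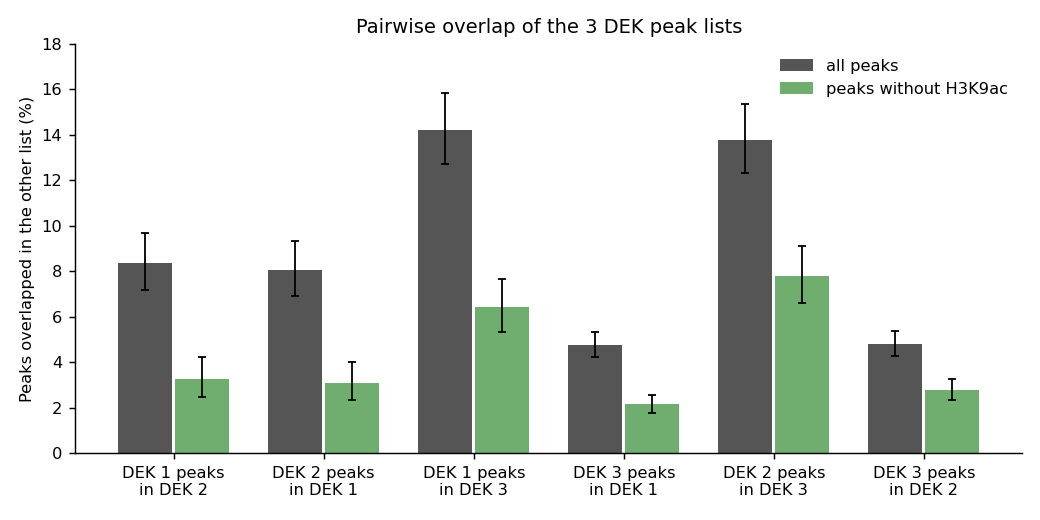
Percentage of peaks of one DEK list overlapped by a peak of another (y axis) for the 6 ordered pairs of lists (x axis), with all peaks in grey and without H3K9ac-overlapping peaks in green; bars are shares and error bars exact 95% binomial intervals. The share was lower in all 6 pairs without H3K9ac peaks, from 14.2% to 6.43% for DEK1 peaks in DEK3 and from 8.36% to 3.27% for DEK1 peaks in DEK2.

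Joining the lists gave 9207 regions, of which 8737 came from 1 library, 348 from 2 and 122 from all 3. The recurrent regions therefore numbered 470. Without DEK1 there were 276, without DEK2 there were 275 and without DEK3 there were 162. Of the 348 regions in 2 libraries, 40 joined DEK1 with DEK2, 153 joined DEK1 with DEK3 and 155 joined DEK2 with DEK3. With the H3K9ac-overlapping peaks removed, 256 recurrent regions remained, 27 of them in all 3 libraries. The share of peaks found in another library was 16.3% in DEK1, 15.8% in DEK2 and 7.45% in DEK3 (mean 13.2% ± 4.97, SD, n = 3). Without H3K9ac it was 8.16%, 9.51% and 4.41% (mean 7.36% ± 2.64, SD, n = 3). DEK3 had the lowest share in both settings.

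Peak strength separated the peaks that recurred from those that did not. Among the 100 strongest peaks of each list, 81 of DEK1, 90 of DEK2 and 69 of DEK3 were shared (mean 80% ± 10.5, SD, n = 3). Below rank 1000 the share was 5.82% in DEK1 and, down to rank 2000, 4.50% in DEK2. It was 2.68% below rank 2000 in DEK3. The strongest peaks were also largely those with H3K9ac, which overlapped 72, 80 and 80 of the 100. Once H3K9ac peaks were removed and ranks reassigned, 32 of the top 100 in DEK1, 40 in DEK2 and 27 in DEK3 were shared (mean 33.0% ± 6.56, SD, n = 3). Sharing was higher in the top 100 than over the whole list in each library under both settings.

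**Figure D2:**
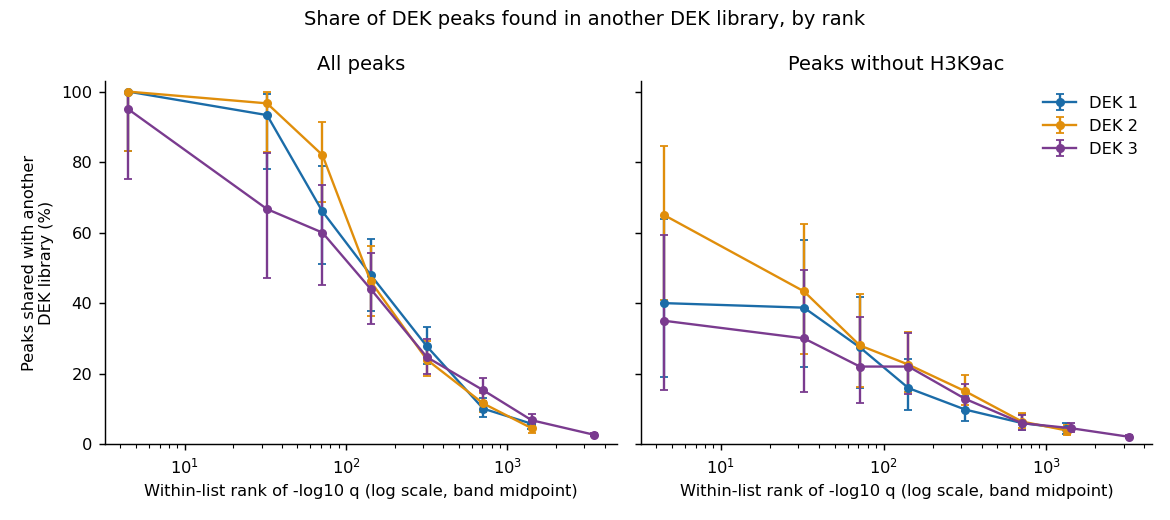
Percentage of DEK peaks shared with another DEK library (y axis) against within-list rank of −log10 q (x axis, log scale, rank bands of at least 20 peaks drawn at their midpoint), for all peaks (left) and without H3K9ac peaks (right); colours are the 3 libraries and error bars exact 95% binomial intervals. The top 20 peaks were shared at 100%, 100% and 95% with all peaks and at 40.0%, 65.0% and 35.0% without H3K9ac.

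The order of the shared peaks was similar between libraries when all peaks were used. Spearman's rho of within-list rank was 0.877 for DEK1 and DEK2 over 162 matched peaks, 0.755 for DEK1 and DEK3 over 275, and 0.707 for DEK2 and DEK3 over 276. Without H3K9ac peaks it was 0.446 over 56 matched peaks, 0.580 over 111 and 0.370 over 141. These points are peaks, not replicates, and many weak peaks are tied: 10.9% of DEK1, 10.4% of DEK2 and 19.4% of DEK3 peaks held the single commonest −log10 q of their list.

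**Figure D3:**
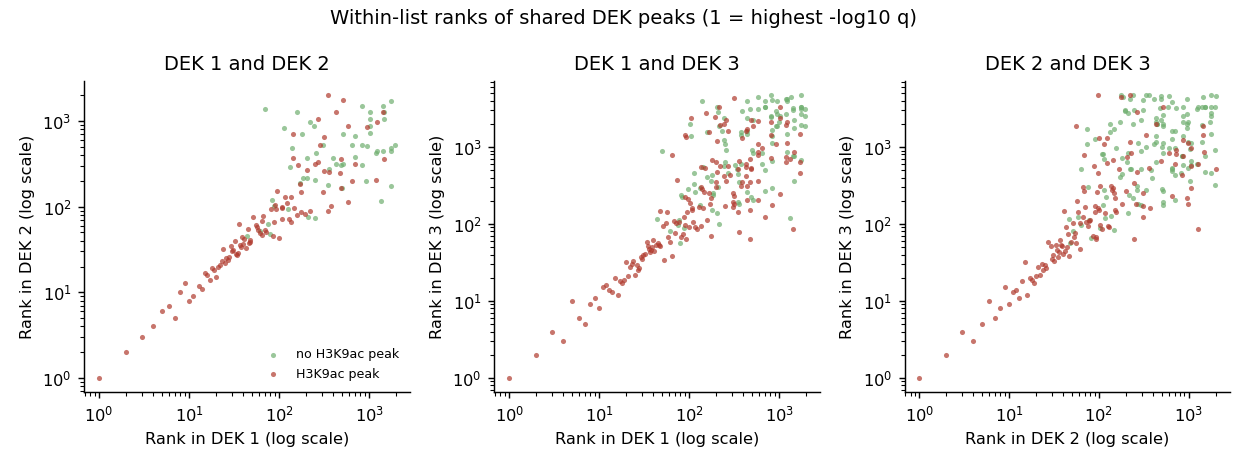
Within-list rank of −log10 q in one DEK library (x axis) against another (y axis), both on log scales with 1 as the strongest peak; each point is a pair of overlapping peaks, red with an H3K9ac peak and green without. The points below rank 20 in both lists are red in all 3 panels and lie close to the diagonal, and the green points spread widely.

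DEK3 differed from the other libraries among its strongest peaks. Of its 50 highest ranked peaks, 11 had no counterpart in DEK1 or DEK2, against 2 of 50 in DEK1 and 1 of 50 in DEK2. H3K9ac peaks overlapped all 11 of the DEK3 peaks and none of the 3 others. The highest of the 11 was chr12:3109872-3110131, outside genes, at rank 7 with −log10 q at 1430 and a fold enrichment of 47.6. Others lay inside Flt1, the gene of a receptor for vascular endothelial growth factor (chr5:147611435-147611697, rank 31, fold 46.4), inside Lama1, the gene of a laminin chain of basement membranes (chr17:67741362-67741586, rank 45, fold 36.6), and inside Dop1b (chr16:93789191-93789385, rank 49, fold 35.2). These named peaks were narrow, at 260, 263, 225 and 195 bp, where the narrowest listed peak was 263 bp in DEK1 and 269 bp in DEK2. The unshared DEK3 peak at chr9:3025482-3025998 measured 517 bp. Whether width accounts for the missing counterparts was not tested. In the other direction, DEK3 peaks were found at 46 of the 50 strongest H3K9ac peaks of fl HSC, where DEK1 peaks were found at 25 and DEK2 peaks at 26. For the 50 strongest H3K9ac peaks of cKO HSC the counts were 43, 33 and 32. DEK3 row names share the word rmdup with those of the H3K9ac lists, and the part of processing in this overlap was not tested.

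In each library, shared peaks were wider than unshared ones. Median width was 436 bp against 375 bp in DEK1, 471 bp against 405 bp in DEK2 and 456 bp against 221 bp in DEK3. The ratio was 1.16, 1.16 and 2.06 (mean 1.46 ± 0.520, SD, n = 3). The medians of shared peaks were close in the 3 libraries, but the 25th percentile was 343 bp in DEK1, 362 bp in DEK2 and 281.5 bp in DEK3. Without H3K9ac the shared medians were 416, 429 and 359 bp. A wide peak can overlap another more readily. The mean ratio was 1.55 when overlap had to cover 50% of both peaks and 1.44 when summits had to lie within 200 bp. Without H3K9ac peaks the ratio was 1.11, 1.06 and 1.65. Peaks wider than 1 kb numbered 29, 35 and 63 with all peaks, and 4, 8 and 27 without H3K9ac.

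**Figure D4:**
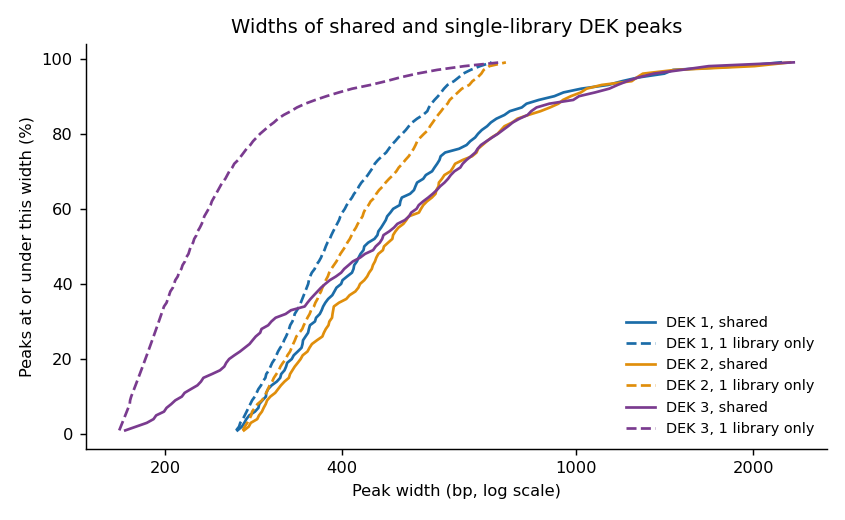
Cumulative percentage of peaks (y axis) at or under a width in bp (x axis, log scale) in each DEK library, with shared peaks as solid lines and peaks of 1 library only as dashed lines. The dashed DEK3 line has a median of 221 bp, below the 375 and 405 bp of the other dashed lines, and the 3 solid lines have medians between 436 and 471 bp.

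Regions called in more DEK libraries carried histone acetylation peaks more often. An H3K9ac peak of either genotype lay at 6.28% of single-library regions, 34.2% of regions in 2 libraries and 77.9% of regions in 3 (interval 69.5 to 84.9). H3K27ac, from LSK cells, lay at 5.67%, 18.7% and 45.1% (interval 36.1 to 54.3). In regions without an H3K9ac peak, H3K27ac lay at 4.98% of single-library regions, 21.4% of those in 2 libraries and 22.2% of those in 3 (interval 8.62 to 42.3). The promoter mark H3K4me3 lay at 0.595%, 0.575% and 0.820%, with no such gradient. The regions also differed in width, with medians of 279 bp in 1 library, 574 bp in 2 and 775.5 bp in 3. A wider region can overlap a mark more readily, and the part of width in these shares was not tested. Within each library, shared peaks carried H3K27ac more often than unshared ones also without H3K9ac: 16.9% against 1.94% in DEK1, 22.7% against 1.65% in DEK2 and 22.7% against 7.09% in DEK3. The interval for regions in all 3 libraries was wide because only 27 such regions had no H3K9ac peak.

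The start of the assembled chromosomes was the genomic place where shared and unshared peaks differed most. Mouse chromosomes have their centromere near one end, and the assembly leaves that end unsequenced, so that the first assembled bases at about 3 Mb lie nearest the centromere. Peaks with a start below 3.5 Mb made up 11.6% of shared and 0.304% of unshared peaks in DEK1, 11.3% and 0.592% in DEK2, and 10.3% and 0.759% in DEK3. The first 500 kb took 0.395% of the span from 3 Mb to the last annotated gene or peak of each chromosome. Without H3K9ac the shared and unshared shares were 9.86% and 0.375% in DEK1, 8.14% and 0.611% in DEK2, and 9.61% and 0.745% in DEK3. The share at chromosome starts was thus higher among shared than among unshared peaks in all 3 libraries under both settings.

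The 43 recurrent regions at chromosome starts were spread over 11 chromosomes, with 12 on chromosome 9, 9 on chromosome 17 and 5 each on chromosomes 4 and 16. All 12 on chromosome 9 were called in every library. H3K9ac peaks overlapped 22 of the 43, and none lay within 1 kb of a protein-coding gene's end.

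**Figure D5:**
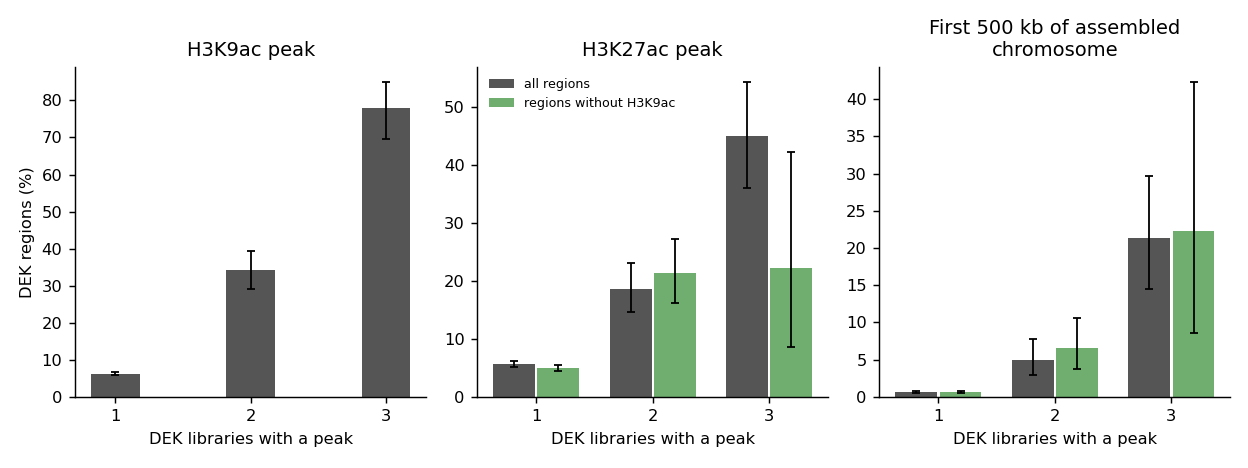
Percentage of DEK regions (y axis) with an H3K9ac peak (left), with an H3K27ac peak (middle) or within the first 500 kb of an assembled chromosome (right), by the number of DEK libraries that called the region (x axis); grey bars are all regions, green bars regions without H3K9ac, error bars exact 95% binomial intervals. From 1 to 3 libraries H3K9ac goes from 6.28% to 77.9% and the chromosome-start share from 0.641% to 21.3%.

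The other places differed little. Ends of protein-coding genes (within 1 kb of an annotated start or end, since the gene table gives no strand) held 2.85% of DEK1, 3.04% of DEK2 and 2.38% of DEK3 peaks, where they make up 3.09% of the span. Gene interiors held 40.1%, 40.1% and 40.4% of peaks and 39.2% of the span. The space outside genes held 57.1%, 56.8% and 57.2% of peaks and 57.7% of the span. The shares of peaks were thus near these shares of length. A peak counted at a gene end if any of its bases touched the window, so shares of peaks and of length are not measured alike. Shared peaks lay outside genes somewhat more often than unshared ones, at 62.4% against 56.1% in DEK1, 62.6% against 55.7% in DEK2 and 62.3% against 56.8% in DEK3. Without H3K9ac it was 62.0% against 56.7% in DEK1, 58.1% (interval 50.4 to 65.6) against 56.6% in DEK2 and 62.4% against 57.7% in DEK3. The part of the peaks at chromosome starts in this difference was not tested. Of regions inside genes, 64.0% of single-library and 54.7% of recurrent ones (interval 46.9 to 62.2) lay in genes of at least 100 kb, which hold 61.3% of the length of gene interiors.

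The strongest region, outside genes at chr2:98666253-98667329, was ranked first in all 3 libraries, with a fold enrichment of 18.0 in DEK1, 18.2 in DEK2 and 26.2 in DEK3. Second in all 3 was chr14:124801559-124802243, with folds of 22.4, 22.7 and 36.8. The 10 best ranked regions of all 3 libraries lay outside genes and more than 1 kb from any protein-coding gene. Each overlapped H3K9ac and H3K27ac peaks of both genotypes, and 2 of them lay at the start of chromosome 9. The H3K9ac and H3K27ac peaks of cKO cells, where Dek is the deleted gene, are therefore present at the same 10 places as the strongest DEK peaks of fl cells. No H3K4me3 peak overlapped any of the 10. Whether peaks would also be called at these places without the DEK antibody was not tested.

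Without H3K9ac, the best ranked region was chr1:24611663-24616113, 23.7 kb from Col19a1, a collagen gene. It was also the widest: the peak measured 4283 bp in DEK1 at rank 44, 4277 bp in DEK2 at rank 46 and at most 2905 bp in DEK3, where it was split into 2 peaks, the better one at rank 117. This place is known from the reference genome as a nuclear copy of mitochondrial DNA. Its fold enrichment was low, at 3.65, 3.46 and 3.73, beside its high rank. Next came chr3:56575435-56575793, 391.7 kb from Nbea, at ranks 62, 52 and 82 with folds of 16.4, 18.5 and 23.3. A second region on the same chromosome, chr3:55661179-55661622, lay inside Nbea, the gene of the vesicle-transport protein neurobeachin, at ranks 183, 218 and 241. Of the 27 regions in all 3 libraries without H3K9ac, 18 lay outside genes, 6 inside genes and 3 at gene ends, and 6 lay at chromosome starts.

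Recurrent DEK peaks at gene ends were few. A DEK peak lay within 1 kb of an end of 59 protein-coding genes in DEK1, 61 in DEK2 and 144 in DEK3, which made 251 of 20661 genes (1.21%) in any library. Peaks of at least 2 libraries lay at the ends of 11 genes (0.0532%), of 5 without DEK1, 8 without DEK2 and 2 without DEK3. Without H3K9ac peaks 227 genes (1.1%) had one in any library and 4 (0.0194%) in at least 2. Among the 11 genes were Wls, Mfap2, Ifi44l, Gp9, Crebzf, Dffb, Vmn2r2, Abcc2, Wdhd1 and the predicted gene Gm32584. The 4 that remained without H3K9ac were Vmn2r2, Abcc2, Wdhd1 and Gm32584.

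The strongest gene-end peak stood next to Wls, whose protein carries Wnt ligands to the cell surface, at chr3:159939405-159939679, 0.739 kb beyond the gene. It had rank 12 and fold 27.9 in DEK1 and rank 16 and fold 42.9 in DEK3, and no peak in DEK2. Mfap2, a gene of elastic microfibrils, had a peak 0.774 kb away in all 3 libraries, at ranks 108, 100 and 152. Both carried H3K9ac peaks of both genotypes. Gp9 encodes a subunit of the platelet receptor for von Willebrand factor and is a marker of megakaryocytes. A peak 0.366 kb from it had rank 56 in DEK2 and rank 1875 in DEK3, with fold 17.9 and 6.31, and none was listed in DEK1. Ifi44l, an interferon-induced gene, had rank 223 in DEK2 and 1177 in DEK3, and H3K9ac there was listed in cKO cells only. Crebzf, the gene of a leucine-zipper transcription factor, had peaks of 660 bp in DEK1 and 663 bp in DEK3. One peak in DEK1 and DEK3, at ranks 487 and 2210, lay within 1 kb of an end of Dffb, the gene of a nuclease of apoptosis, and it overlapped H3K4me3.

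Gm32584 was the gene without H3K9ac that had all 3 libraries at an end, and it had them at both ends. The first region, chr5:36630484-36630782, had ranks 83, 119 and 226 in DEK1, DEK2 and DEK3. The second, chr5:36660925-36661253, had ranks 204, 214 and 139. Both also lie inside D5Ertd579e, so the annotation does not assign them to 1 gene. At Vmn2r2, a vomeronasal receptor gene, peaks of DEK1 and DEK3 had ranks 159 and 1562. At Abcc2, which encodes an export pump for organic anions, they had ranks 441 and 3996. At Wdhd1, whose protein acts in DNA replication, the DEK2 and DEK3 peaks lay apart from each other and formed no recurrent region.

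Inside genes, 174 of 20661 protein-coding genes (0.842%) held a recurrent region, and 100 (0.484%) held one without H3K9ac. A region of 1 library lay inside 2512 genes (12.2%). Among regions away from gene ends, the 15 genes with the best ranked ones without H3K9ac included Mpp7, Sfi1, Cdh18, Arhgap20, Phip, Cdca7l, Pfdn4, Uxs1, Dgkb, Pde5a, Nbea, Zswim6 and Acsl6. Of the 15, the region in Nbea was called in all 3 libraries and the others in 2. Mpp7, the gene of a cell-polarity scaffold, had ranks 59 in DEK2 and 125 in DEK3, with folds of 16.2 and 17.7 and H3K27ac peaks of both genotypes. Cdca7l, a gene of a Myc-binding protein, had ranks 137 in DEK2 and 126 in DEK3, with widths of 616 and 688 bp. Dgkb, the gene of a diacylglycerol kinase, had ranks 157 in DEK1 and 402 in DEK3. Genes with a recurrent region were long, with a median span of 115.0 kb against 17.5 kb over all genes, and the 2425 genes with single-library regions alone had a median of 95.5 kb.

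Of 193 genes in lists for blood, cell-cycle, signalling and chromatin biology and for endothelial, stromal and non-blood cells, 9 had a DEK peak at an end in any library and Gp9 had it in 2. Recurrent regions lay inside Cdk6, the gene of a cell-cycle kinase (DEK1 rank 150, DEK3 rank 540), and inside Lepr, a marker of marrow stromal cells (DEK1 rank 304, DEK3 rank 165). Both overlapped H3K9ac, and no listed gene held a recurrent region without it. Of 26 genes of HSC identity, 2 had a DEK peak at an end and none in 2 libraries. One of them was Mecom, a transcription factor gene needed by HSC. Mecom held 7 peaks, 1 in DEK1, 1 in DEK2 and 5 in DEK3, and none of them overlapped another. None of the 18 myeloid, 18 lymphoid, 10 endothelial, 10 stromal and 28 chromatin genes had a DEK peak at an end. The 9 genes with one in any library made up 4.66% of the listed genes, against 1.21% of all genes. The lists were chosen with earlier results of these data known, so these shares make no test. They include 6 genes of the study, of which 3 had a DEK peak at an end. Of the 9, 3 rested on irregular DEK3 rows described below, and 6 (3.11%) remained without them.

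The genes named most closely with the study did not have recurrent DEK peaks in these rows. Dek and Ncor1, a co-repressor gene, had none. Akt1 and Akt2, kinase genes of growth-factor signalling, Ccnb2, and Cdkn1a, the gene of the cell-cycle inhibitor p21, each had 1 peak, in DEK3 alone. Ccnb2 had a peak at chr9:70420956-70422188 with fold 3.58 and a −log10 q of 2.04, the lowest value in the DEK3 list, which 1132 of its peaks held. Cdkn1a had one at chr17:29093601-29094793 with −log10 q at 3.37 and fold 5.04. These peaks were wide for their strength. Of 3667 DEK3 peaks with a −log10 q under 5, the median width was 215 bp and the 99th percentile 551 bp. The 5 of them that measured at least 1 kb were those at Akt1 (1248 bp), Akt2 (1871 bp), Ccnb2 (1233 bp) and Cdkn1a (1193 bp), and chr9:90060050-90061241 (1192 bp). DEK1 and DEK2 had 1 such peak each, neither near these genes.

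Some rows of the DEK lists were built unlike the rest. In 7 rows the strand column was blank instead of a dot, 4 in DEK1, 1 in DEK2 and 2 in DEK3, and these were not used. They lay at Tgfb1, Akt2, Akt1 and near Map3k10 and Zfp607b in DEK1 and at Akt1 in DEK2, and the 2 of DEK3 included 1 at Akt2. In all 7 the score differed by more than 1 from 10 times −log10 p, a rule that 2 other DEK3 rows broke and all remaining rows kept. Those 2 were among 4 rows with a dot, all in DEK3, that broke the rule or stood out of coordinate order. The 4 included those at Gata2, Akt2 and Akt1. The coordinates chr12:112674445-112675692, at Akt1, appeared to the base in all 3 lists, blank in DEK1 and DEK2 and with a dot in DEK3. No other pair of coordinates was listed in 3 libraries. The coordinates chr7:27590987-27592857, at Akt2, appeared in DEK1 with a blank and in DEK3 with a dot. Elsewhere, no more than 5 peaks of any 2 lists shared both coordinates. How these rows came to be written was not tested. Leaving out the 4 rows with a dot left 470 recurrent regions and 122 in all 3 libraries, as before, and left Akt1 and Akt2 without a DEK peak at either end.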

How the data were processed

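Deposited peak lists of 3 DEK CUT&Tag libraries and of the H3K9ac, H3K27ac and H3K4me3 libraries were used. The tools were Bowtie2, Picard and MACS2 and the build mm10, per the submitters' processing notes, with versions, thresholds and control tracks not given in the sources used here. Peaks were called per library, as the deposited lists show. The authors' columns hold a score, a fold enrichment (ratio), −log10 p and −log10 q values, and a summit offset within each peak. All are the caller's own values, used only to rank or describe peaks within a list.

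From these files, rows with a dot in column 6 on chromosomes 1 to 19 were kept. Overlap of 1 bp or more, ranks of column 9 (ties sharing the lowest rank), widths and places were computed with Python 3.11.15, numpy 2.4.6, pandas 2.3.3 and scipy 1.17.1. The overlap code was tested on simulated intervals with known answers. Gene places and promoter sequences came from RefSeq tables of GRCm38.p6. Replicate numbers pair nothing, since DEK has 1 group. Named regions were the 10 best ranked in all 3 libraries and the 10 best without H3K9ac; named genes were those with peaks of at least 2 libraries at an end, the 15 holding the best regions without H3K9ac, listed genes with a peak, and the study's genes; a few genes that this rule names are not reported here. The members and gene lists were chosen with earlier results of these data known. Alternatives changed the overlap rule, strength cut, list length, chromosomes, rows, marks, gene window and libraries. Read depth is unknown, so intervals cover counting error only.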

Additional observations from a re-analysis of the deposited data

Results flagged for a closer look

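3 sets of rows of the DEK lists lay outside the comparisons. The 3 DEK lists held 16 peaks on the mitochondrial chromosome. They held 7 rows with a blank strand column, among them rows at Tgfb1, Akt1, Akt2 and near Map3k10 and Zfp607b. On chromosomes X and Y, 18 regions were called in at least 2 DEK libraries, 7 of them in all 3, out of 482. No control library for the DEK antibody was analysed here, so these counts have no background of their own.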

How the results depend on the processing

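Of 105 values recomputed under 13 settings, 78 moved by less than their spread, interval or 1.5 times and 27 moved further. Leaving out H3K9ac-overlapping peaks gave 256 recurrent regions, 27 in all 3 libraries, 7.36% of peaks shared, 33.0% of the top 100 shared, 4 genes with ends in at least 2 libraries and a mean rho of 0.465. Leaving out H3K27ac-overlapping peaks, chosen after seeing the data, gave 67 regions in all 3 libraries, 59.3% of the top 100 and a mean rho of 0.647. At a −log10 q of at least 5 there were 272 recurrent regions, 26.0% of peaks shared, 58.1% of recurrent regions with H3K9ac and 7 such genes. The top 2000 peaks of each list gave 53.0% with H3K9ac and 7 genes, and reciprocal overlap of 50% gave 53.3%. A gene window of 5 kb gave 8.72% of recurrent regions at ends and 66 genes, a wider window by construction. Leaving out each library in turn, which leaves 2 lists by construction, gave 162 to 276 recurrent regions, 8.21% to 9.49% of peaks shared, 48.9% to 65.4% with H3K9ac, 2 to 8 genes and a rho of 0.707 to 0.877. The counts of 162 regions and 2 genes were without DEK3, and 276 regions and 5 genes without DEK1. Other causes of these changes were not tested. No paired analysis was possible because DEK was profiled in 1 group, so no second group has replicate numbers to match. Unknown depth limits every absence: a missing peak in 1 list was not called there, and is not shown to be absent.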
